A study of Sesamum indicum with 6 samples.

Results

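The 5 KANADI genes and the 3 genes for auxin response factors 3 and 4 (ARF3, ARF4 and ARF4-like) of sesame (Sesamum indicum) were examined in young leaves of seedlings aged 17 days. These 8 genes, of 25762 in the deposited count table, were taken by their gene identifiers and the product names that the authors' table pairs with them. All 8 passed the filter on low counts and were among the 21009 genes tested. The plants were recombinant inbred lines homozygous at the SiCD locus of linkage group 8, either for the SiCD-A allele, which holds wild-type KAN1, or for the SiCD-B allele, which holds the mutant kan1. Each allele was represented by 19 plants, and 3 RNA pools of 9 plants each were made from them. The 27 places in the pools of an allele exceed its 19 plants, so pools of an allele share plants, and every p-value measures the spread between such overlapping pools. The labels do not describe the lesion in kan1, and the 2 sets of plants can also differ at other loci.

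KANADI proteins are transcription factors of the GARP family that specify the lower (abaxial) face of the leaf. They oppose the HD-ZIP III factors of the upper (adaxial) face, and the blade grows out where both faces meet. In Arabidopsis, ARF3 (ETTIN) and ARF4 act beside the KANADI genes in abaxial identity. Their transcripts are cut there by trans-acting small RNAs that depend on ARGONAUTE 7.

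Transcripts of 7 of the 8 genes rose in the SiCD_B pools and those of 0 fell. The largest fold change was that of KAN1-like and the next that of KAN1, while the smallest rise was that of ARF4-like, at 1.31-fold. The KAN2 gene LOC105155509 was the member that did not pass. By comparison, 16.5% of all tested genes were called higher and 14.1% lower, and 30.6% were called in either direction. The rises made up 53.8% of all calls, and 67.5% when libraries were scaled by size alone. The test was edgeR's quasi-likelihood test on the counts, SiCD_B minus SiCD_A, and each adjusted p is its Benjamini-Hochberg value over all 21009 genes, with a call below 0.05. Levels are in CPM, the gene's counts relative to its pool's library size, which TMM scaling adjusts for differences in composition. They are not divided by transcript length, so levels of different genes are not ranked against each other. In bulk leaf RNA, more cells that express a gene and more RNA per cell cannot be told apart.

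Total counts per pool were 56123250 to 82165322, of which 16536 to 38272 fell on the 8 genes. The first principal component of all tested genes, with 60.0% of the variance, separated the alleles. A further 14.9% of the variance, on the second component, separated SiCD_A pool 3 from pools 1 and 2 of that allele, and its library had the fewest counts. Small chain genes of ribulose bisphosphate carboxylase and chlorophyll a-b binding genes, the check on leaf tissue, summed to 32804, 31558 and 21764 CPM in the SiCD_A pools and to 21944 to 25833 CPM in SiCD_B. The low SiCD_A value was that of pool 3, and its part in the results was not tested. All 8 differences kept a positive sign without this pool, and the same 7 genes passed.

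KAN1 (LOC105167765) is the gene of the SiCD locus itself, and its product is named a transcription repressor. Its transcript level is no check of the labels, since they leave the lesion undescribed. The deposited table places its coding segment on linkage group 8, bases 5061716 to 5062586 on the plus strand, in a genome build it does not name. Its level was 22.2, 20.7 and 25.2 CPM in SiCD_A pools 1, 2 and 3, and 53.8, 52.9 and 56.5 CPM in the SiCD_B pools. The lowest SiCD_B pool thus lay 2.10-fold above the highest SiCD_A pool. The fitted fold change was 2.40 (95% confidence interval 2.14 to 2.68, adjusted p = 3.33e-05), with higher levels in 3 of 3 SiCD_B pools, and KAN1 ranked 17 of all tested genes by p.

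KAN1-like (LOC105178203), the closest KANADI relative of KAN1 by name, lies on linkage group 15 (coding segment 7864042 to 7864891, minus strand). It was barely detected in SiCD_A, at 0.0282, 0.151 and 0.107 CPM, and reached 2.52, 2.06 and 2.38 CPM in SiCD_B. A level of 3 counts corresponds to 0.0365 to 0.0535 CPM, so the lowest SiCD_A pool, with 2 counts, was under that floor. The fold change was 24.0, with a wide 95% confidence interval of 13.6 to 42.6 (adjusted p = 0.000130). Within a pool, the log2 ratio of KAN1 to KAN1-like counts was 8.04 ± 1.16 in SiCD_A and 4.55 ± 0.13 in SiCD_B (SD, n = 3 pools each). The SiCD_A ratio rests on 2, 11 and 6 counts of KAN1-like, and its difference from SiCD_B ranged from -3.99 without SiCD_A pool 2 to -2.85 without SiCD_A pool 1. Whether reads were exchanged between the paralogs was not tested.

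KAN2 genes act with KAN1 in Arabidopsis leaves, and sesame has a pair of them on linkage group 2. The gene LOC105156014 (12911314 to 12911932, plus strand) stood at 20.1, 19.2 and 25.7 CPM in SiCD_A and at 32.1, 33.7 and 38.1 CPM in SiCD_B. SiCD_A pool 3 was high, but the groups did not overlap, and the fold change was 1.60 (95% confidence interval 1.32 to 1.94, adjusted p = 0.00543). The other gene, LOC105155509 (6855859 to 6856462, plus strand), had 7.40, 6.47 and 7.56 CPM in SiCD_A and 6.89, 7.49 and 8.18 CPM in SiCD_B. Its groups overlapped, and its fold change of 1.05 had a 95% confidence interval of 0.897 to 1.24 (adjusted p = 0.613). The interval excludes a rise as large as that fitted for LOC105156014.

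KAN4 (LOC105166208, linkage group 7, 4382151 to 4382658, minus strand) is known in Arabidopsis as a gene of the ovule's integuments. In these leaves it had 32, 43 and 34 counts in SiCD_A and 93, 112 and 67 in SiCD_B, or 0.450 to 0.604 CPM against 0.878 to 1.34 CPM. The groups did not overlap, and the fold change was 2.09 (95% confidence interval 1.39 to 3.12, adjusted p = 0.0145). It did not pass when SiCD_A pool 1 was left out (edgeR adjusted p = 0.0541), nor in the absence of SiCD_B pool 2 (0.0648). With a requirement of at least 1 CPM in 3 pools, KAN4 was not tested.

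**Figure D1:**
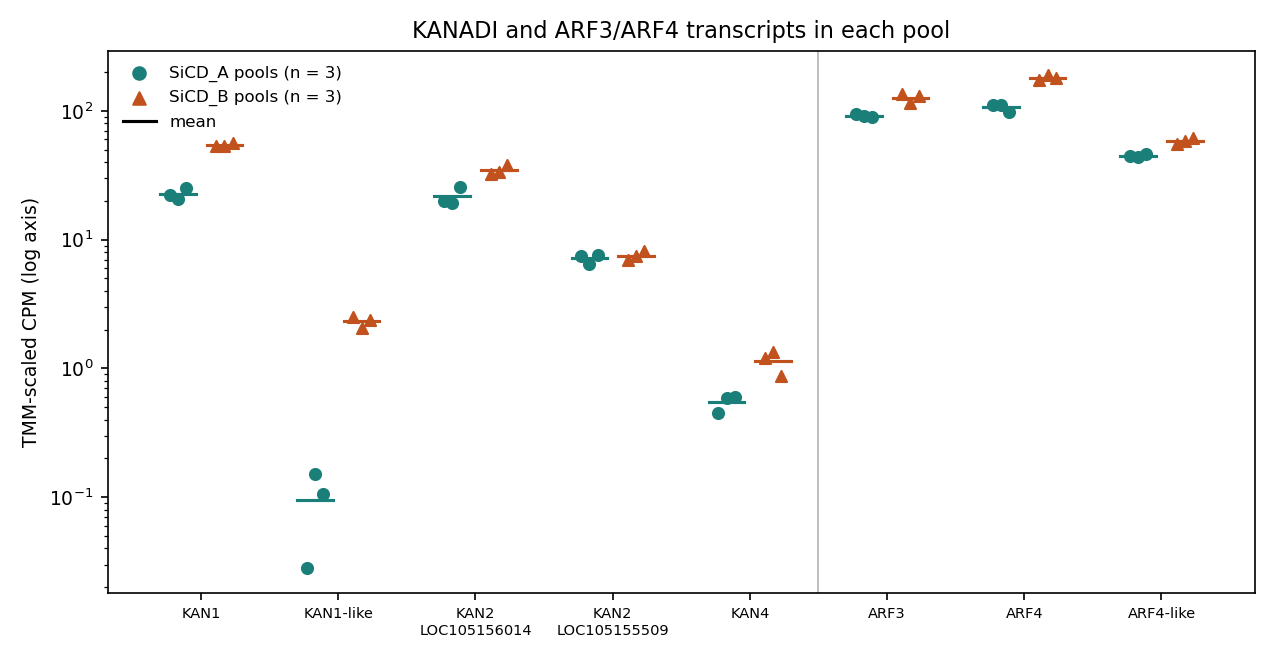
Level in TMM-scaled CPM on a log axis for each gene, with circles for the 3 SiCD_A pools, triangles for the 3 SiCD_B pools and a bar at each mean. The pools separate by allele for every gene except KAN2 LOC105155509, whose pools lie between 6.47 and 8.18 CPM.

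ARF3 (LOC105175642, linkage group 12, 4534076 to 4534375, minus strand) encodes a factor that, in Arabidopsis, lacks the domain by which Aux/IAA repressors bind other ARFs. It had 93.9, 91.5 and 89.9 CPM in SiCD_A and 134, 114 and 131 CPM in SiCD_B. All SiCD_B pools were higher, with pool 2 the nearest to SiCD_A. The fold change was 1.38 (95% confidence interval 1.25 to 1.52, adjusted p = 0.000920).

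ARF4 (LOC105170702) and ARF4-like (LOC105170317) both lie on linkage group 9, at 5352664 to 5353050 on the minus strand and at 2365121 to 2365495 on the plus strand. ARF4 had 111, 111 and 98.2 CPM in SiCD_A, and 173, 188 and 180.0 CPM in SiCD_B. Its fold change of 1.69 (95% confidence interval 1.54 to 1.85, adjusted p = 0.000130) was the largest of the 3 ARF genes. ARF4-like had 44.2, 43.7 and 46.3 CPM in SiCD_A and 55.6, 57.9 and 61.8 CPM in SiCD_B. Its fold change was 1.31 (95% confidence interval 1.21 to 1.41, adjusted p = 0.000917), an interval that lies below that of ARF4. Pools of the alleles did not overlap for any of the 3 ARF genes.

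Over all 8 genes, every SiCD_B pool lay above every SiCD_A pool for 7, against 25.8% of all tested genes, and 48.4% of all tested genes had pools that did not overlap in either direction. The authors' deposited table called the same 7 genes, with log2 fold changes from 0.38 for ARF4-like to 4.60 for KAN1-like, and gave 0.07 (adjusted p = 0.727) for LOC105155509.

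**Figure D2:**
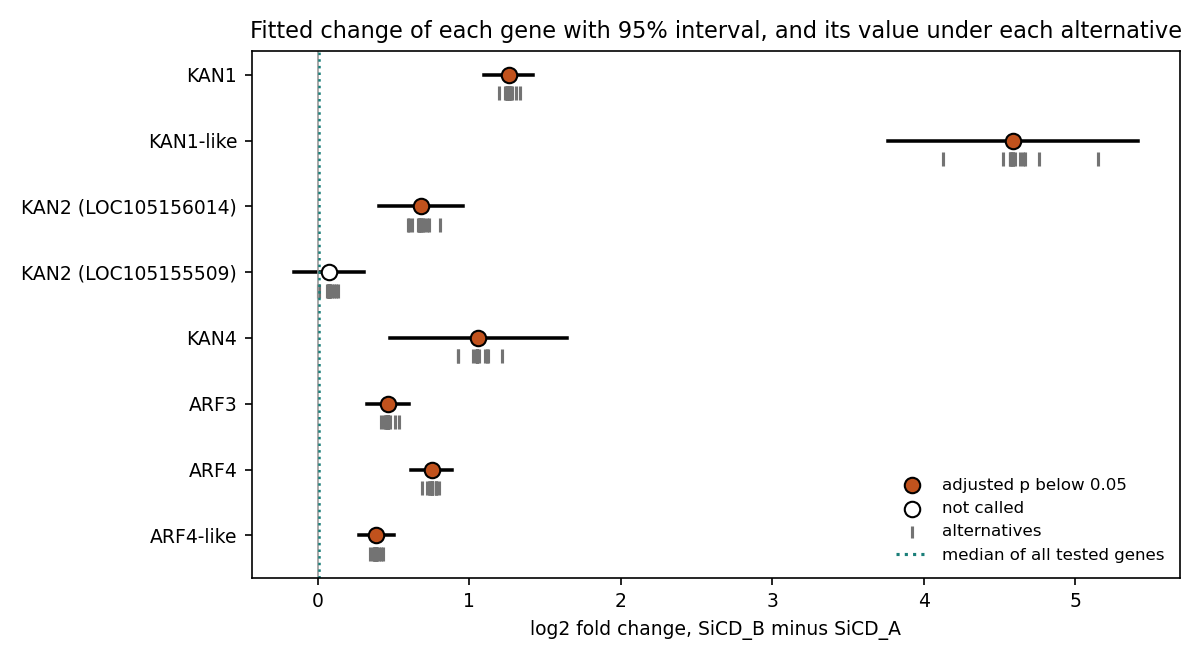
Fitted log2 fold change of each gene, SiCD_B minus SiCD_A, with its 95% confidence interval, where filled points are called and the open point is not, and grey ticks give the values under the alternative settings. All estimates lie to the right of 0, and the interval of KAN2 LOC105155509 alone crosses it. The dotted line is the median of all tested genes, 0.01.

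The make-up of the KANADI reads differed between the alleles, without overlap of pools for the 4 genes other than KAN4. Of all reads on the 5 KANADI genes, KAN1 took 44.3%, 44.0% and 42.6% in the SiCD_A pools and 55.8%, 54.2% and 53.3% in SiCD_B. KAN2 LOC105156014 went the other way, from 40.0%, 40.8% and 43.4% to 33.2%, 34.6% and 35.9%, although its own level rose. The share of KAN2 LOC105155509 was 13.7% ± 0.987 in SiCD_A and 7.52% ± 0.318 in SiCD_B (SD, n = 3). KAN1-like took 0.185% ± 0.132 in SiCD_A and 2.32% ± 0.258 in SiCD_B, and KAN4 about 1% throughout (1.06% ± 0.180 and 1.15% ± 0.286). These are shares of reads, which a longer transcript raises, so they are not shares of molecules. No p is given for them, since each share moves with the others.

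The 5 genes together went from 52.2 ± 6.29 to 100.0 ± 5.27 CPM (SD, n = 3), 1.92-fold. KAN1 made up 66.2% of that difference and KAN2 LOC105156014 27.1%, against 4.65% for KAN1-like, the gene with the largest fold change. In SiCD_B, the KAN1 reads in this sum and in the shares above are those of the mutant kan1, whose lesion is undescribed.

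The 3 ARF genes together went from 243.5 ± 8.04 to 365.4 ± 6.65 CPM (SD, n = 3). ARF4 took 44.7%, 45.2% and 41.9% of their reads in SiCD_A and 47.6%, 52.2% and 48.3% in SiCD_B, without overlap. ARF3 took 37.7% ± 0.623 and 34.7% ± 2.71, and ARF4-like 18.4% ± 1.18 and 16.0% ± 0.614. ARF4 accounted for 60.2% of the difference in the ARF sum, ARF3 for 28.6% and ARF4-like for 11.2%.

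**Figure D3:**
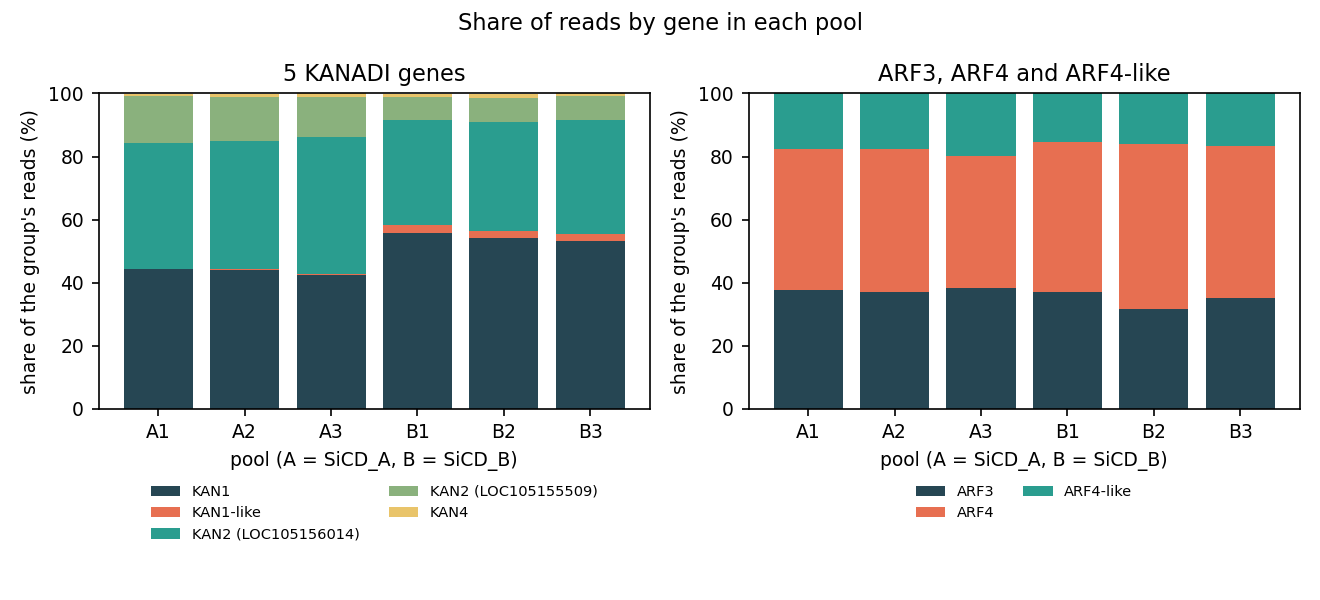
Share of reads, in percent, held by each of the 5 KANADI genes (left) and by ARF3, ARF4 and ARF4-like (right) in each pool, from raw counts not divided by length. The KAN1 band widens from 42.6% to 44.3% in the SiCD_A pools to 53.3% to 55.8% in SiCD_B, and the 2 KAN2 bands narrow.

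Ratios of genes within a pool do not depend on how libraries are scaled, and they show where paralogs differed in their change. All 28 pairs were compared by two-sided exact permutation tests. With 3 pools against 3, the smallest p such a test allows is 0.1, so none could pass and sizes are given as a description. After adjustment over the 28 pairs, the smallest value obtained was 0.133. The log2 ratio of KAN1 to KAN2 LOC105156014 was 0.07 ± 0.09 in SiCD_A and 0.65 ± 0.09 in SiCD_B (SD, n = 3). That of KAN2 LOC105156014 to KAN2 LOC105155509 was 1.59 ± 0.16 and 2.20 ± 0.03. Neither ratio overlapped between the alleles (exact p = 0.1 for each).

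Among the ARF genes, the log2 ratio of ARF4 to ARF4-like was 1.26 ± 0.15 in SiCD_A and 1.63 ± 0.08 in SiCD_B, and that of ARF3 to ARF4 was -0.22 ± 0.08 and -0.51 ± 0.19 (SD, n = 3). Both were without overlap (exact p = 0.1 for each). The ratio of ARF3 to ARF4-like differed by 0.08 (exact p = 0.5), with overlapping pools. Without SiCD_B pool 1 that difference was -0.0021.

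Between the families, KAN1 moved further than each ARF gene. Its log2 ratio to ARF4 was -2.24 ± 0.24 in SiCD_A and -1.73 ± 0.09 in SiCD_B (SD, n = 3), without overlap (exact p = 0.1). The ratio of KAN2 LOC105156014 to ARF4 was -2.31 ± 0.33 and -2.38 ± 0.13, a difference of -0.07 with overlapping pools (exact p = 0.9). Leaving out single pools moved it from -0.18 to 0.12, with the positive value obtained without SiCD_A pool 3.

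Summed over the families, there were 20.1, 19.1 and 25.3 KANADI reads per 100 reads of the ARF genes in SiCD_A pools 1, 2 and 3, and 26.6, 27.0 and 28.4 in SiCD_B. SiCD_A pool 3 came close to the SiCD_B pools without reaching them. The mean of SiCD_B was 1.27-fold that of SiCD_A, and 1.39-fold without SiCD_A pool 3. For KAN1 alone the numbers were 8.91, 8.40 and 10.8 against 14.8, 14.7 and 15.1, a wider separation. The KAN1 reads of SiCD_B are those of the mutant kan1.

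Within an allele group, ARF4-like shared its high and low pools with the KAN2 genes, while ARF3 and ARF4 did not. SiCD_A pool 3 was the highest of its group for 4 of the 5 KANADI genes. On the log2 CPM scale it was 0.16 above the group mean for KAN1 and 0.26 for KAN2 LOC105156014. For KAN4 its lead over the next pool was 0.604 against 0.589 CPM, and for KAN2 LOC105155509 7.56 against 7.40 CPM. Both leads were within counting error (16.6% and 4.59%). In SiCD_A pool 3, ARF4 was 0.12 below its group mean and ARF3 0.03 below it, the lowest of the group for both. ARF4-like was 0.05 above its mean in that pool, the highest of the group, as for KAN1 and the KAN2 genes. In SiCD_B, pool 3 was the highest for KAN1 (0.06 above the mean), both KAN2 genes (0.14 and 0.12) and ARF4-like (0.08), and pool 1 was the lowest for both KAN2 genes and ARF4-like. ARF3 was highest in SiCD_B pool 1 and lowest in pool 2, while ARF4 was highest in pool 2 and lowest in pool 1. The joint rise of KANADI and ARF transcripts was thus seen between the alleles. Among the 3 pools of an allele, KAN1, both KAN2 genes and ARF4-like had the same highest pool, in SiCD_A and in SiCD_B. ARF3, ARF4, KAN1-like and KAN4 did not share both of these pools. The share of all tested genes with these highest pools was not counted, so the match does not show that these genes move together. No correlation is given, since the 6 pools form 2 clusters and 3 pools of an allele are too few.

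**Figure D4:**
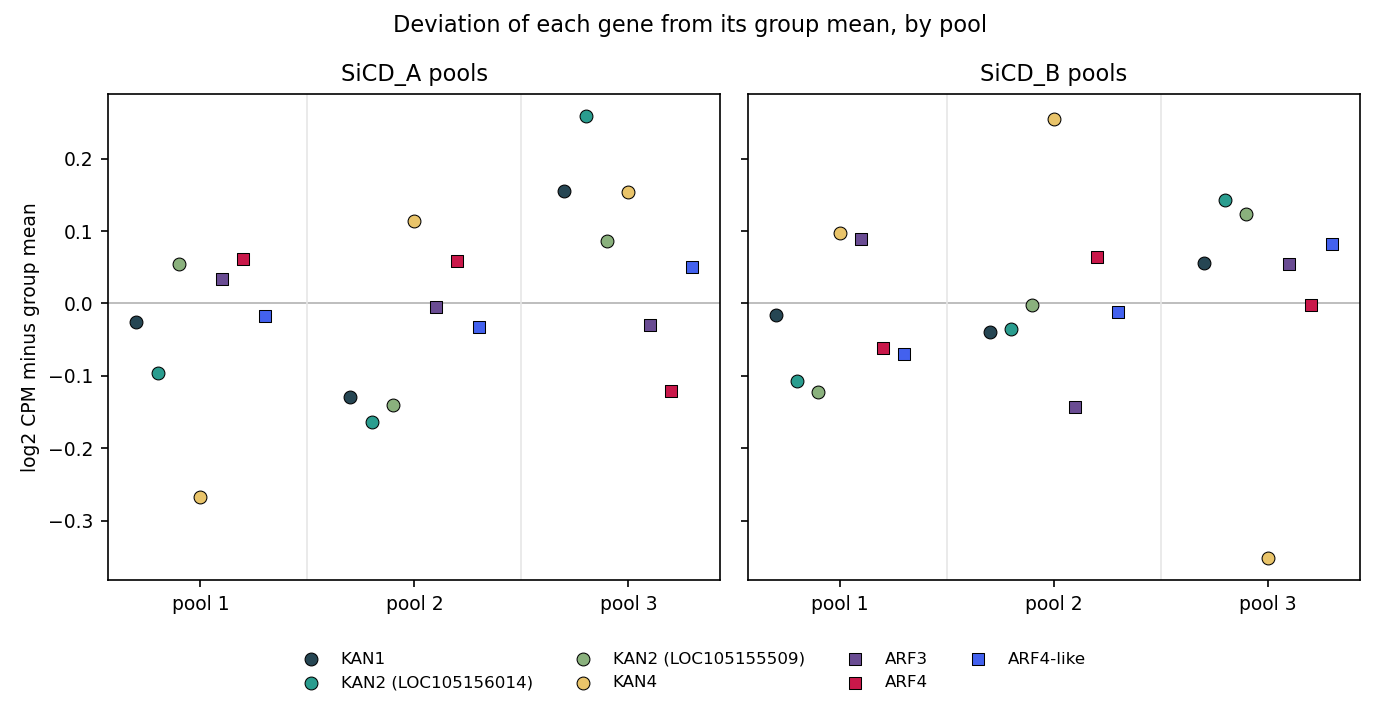
Deviation of log2 CPM from the group mean in each of the 3 SiCD_A pools (left) and SiCD_B pools (right), with circles for KANADI genes and squares for ARF genes. KAN1-like is left out because its SiCD_A counts of 2 to 11 spread its deviations from -1.29 to 0.87. In SiCD_A pool 3, the 4 KANADI genes drawn and ARF4-like lie above 0, and ARF3 and ARF4 lie below it.

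The spread over pools was larger than counting error for most of these genes. KAN1 had a coefficient of variation of 10.1% in SiCD_A, against 2.58% from counting alone, and 3.45% in SiCD_B, against 1.53%. KAN2 LOC105156014 was the more variable gene of its pair in relation to counting error, with 16.3% in SiCD_A and 9.05% in SiCD_B against 2.65% and 1.91%. Of the 500 tested genes nearest to it in mean level, 95.4% had a smaller SD on the log2 scale in SiCD_A and 86.6% in SiCD_B. For KAN1 these shares were 90.6% and 43.6%. KAN4 varied by 15.4% in SiCD_A, near its counting error of 16.6%, and by 20.8% in SiCD_B, against 10.5%.

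ARF3 was steady in SiCD_A, with a coefficient of variation of 2.22%, and varied by 8.49% in SiCD_B, where 89.8% of genes of like level had a smaller SD. ARF4 varied by 7.12% and 4.36%, and ARF4-like by 3.08% and 5.32%. These spreads are smaller than the differences between the alleles, which were 1.31-fold or more for the 3 genes.

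The genes with the most similar profiles were sought among 18751 others with a mean of at least 1 CPM. The measure was the root-mean-square difference in log2 CPM over the 6 pools, after centring each gene, and it reflects mostly the difference between the alleles. Nearest to KAN1 came a putative Myb family transcription factor named At1g14600 (LOC105156150), with a difference of 0.085. It went from 3.37 ± 0.432 to 7.90 ± 0.221 CPM (SD, n = 3). EPIDERMAL PATTERNING FACTOR-like protein 2 (LOC105159073), of a family of signal peptides, followed with 0.107, and the uncharacterized gene LOC105178955 with 0.112. Nearest to ARF4 came POLYCHOME (LOC105162515), a cell cycle regulator in Arabidopsis, with 0.026, histone H3.2 (LOC105171078) with 0.031 and replication protein A 14 kDa subunit B (LOC105174050) with 0.032. Among the members, the nearest to KAN1 were ARF4, with a difference of 0.296 (rank 228), and KAN2 LOC105156014, with 0.299 (rank 243). The nearest to ARF4 were ARF3, with a smaller difference of 0.188 (rank 1138), and KAN2 LOC105156014, with 0.208 (rank 1432). KAN1, at the same 0.296, ranked 3623 in likeness to ARF4, so ranks do not compare between the reference genes.

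The 8 genes lie on 6 linkage groups, and the KAN2 pair and the ARF4 pair share one each. In the RefSeq gene order, the 5 tested genes on either side of KAN1-like held 0 called higher and 1 called lower, with log2 fold changes from -0.65 to 0.50, against 4.59 (SE 0.36) for KAN1-like itself. The 10 neighbours of ARF3 also held 0 higher and 1 lower. Those of KAN1 held 1 higher and 2 lower, where the higher one was the non-coding gene LOC105167770, with a log2 fold change of 4.42. Those of ARF4 held 4 higher and 2 lower, with a median of 0.14, those of ARF4-like 1 and 1, and those of KAN4 3 and 1. KAN2 LOC105156014 had 2 higher and 0 lower, and LOC105155509 had 0 and 1. In either direction, 30.6% of all tested genes were called. The share called among the neighbours was above this for ARF4 and KAN4, near it for KAN1 and below it for the other members. No count of neighbours was tested against that 30.6%.

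The KANADI and ARF genes were set beside other genes of leaf polarity and auxin response, in lists taken by product name. The share called among all tested genes was 16.5% higher and 14.1% lower. Of 24 other auxin response factors tested, 15 rose and 0 fell, with a median log2 fold change of 0.23 against 0.01 for all tested genes. ARF5 (LOC105166017), the activator also called MONOPTEROS in Arabidopsis, had mean levels (SD, n = 3) of 21.6 ± 0.972 and 43.6 ± 5.33 CPM in the SiCD_A and SiCD_B pools, which gave 1.02 (SE 0.09, edgeR adjusted p = 0.000220). The ARF9 genes LOC105159235 and LOC105165118 had 0.76 (SE 0.07) and 0.52 (SE 0.06). ARF4, at 0.75, therefore lay within the range of other ARF genes.

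Of 11 HD-ZIP III and LITTLE ZIPPER genes, which act on the upper face or bind those factors, 9 rose and 0 fell, with a median of 0.46. REVOLUTA (LOC105170294) had 0.80 (SE 0.06), and the ATHB-14 genes LOC105167264 and LOC105175788 had 0.99 (SE 0.08) and 0.56 (SE 0.05). Of 3 genes of the AS1 type, Myb repressors of meristem genes in leaves, all 3 rose, led by AS1-like (LOC105174712) with 1.09 (SE 0.05, edgeR adjusted p = 2.12e-05), followed by AS1 (LOC105161607) with 0.36 and the rough sheath 2 homolog (LOC105176174) with 0.58. Of 6 YABBY genes, which promote blade growth, 4 rose and 0 fell (median 0.19), with 0.95 for YABBY 1-like (LOC105173319), 0.82 for YABBY 1 (LOC105171079) and 0.24 for YABBY 5 (LOC105162139). Without single pools the number that rose was 3 without SiCD_B pool 1 and 2 without any other pool.

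The machinery of trans-acting small RNAs, which limits ARF3 and ARF4 transcripts in Arabidopsis, had 7 tested genes, of which 2 rose and 1 fell (median 0.03). ARGONAUTE 7 (LOC105160001) had mean levels (SD, n = 3) of 47.5 ± 1.90 and 66.8 ± 3.79 CPM in the SiCD_A and SiCD_B pools, and a log2 fold change of 0.49 (SE 0.05, edgeR adjusted p = 0.000401). Double-stranded RNA-binding protein 4 (LOC105176119) had 0.27 (SE 0.06), while the DRB4-like gene LOC105171148, near 1 CPM, had -1.09 (SE 0.32). SUPPRESSOR OF GENE SILENCING 3, RNA-dependent RNA polymerase 6, dicer-like protein 4 and SDE5 did not pass. Without SiCD_A pool 1 or SiCD_B pool 2, 1 gene rose, and without SiCD_A pool 2 or 3 or SiCD_B pool 2 or 3, 0 fell. The small RNAs themselves were not measured here.

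TOPLESS corepressors, through which many repressors act, held 1 gene that rose among 3 tested (median 0.04). That was TOPLESS-related protein 4 (LOC105158374), with 0.53 (SE 0.08). TOPLESS (LOC105158348) had -0.16 (adjusted p = 0.0796 in edgeR) and TOPLESS-related protein 3 (LOC105172405) 0.04. Of 22 tested genes listed by product name for other branches of the GARP family, 3 rose and 1 fell (median 0.05). That is a lower share than the 30.6% called among all tested genes, and family members under other product names are outside the list. Those that rose were EFM-like (LOC105161268) with 0.51, PHL8-like (LOC105159974) with 0.35 and EFM (LOC105169576) with 0.23. The gene that fell was PHL13-like (LOC105180159, named after its values were seen) with -0.94. Without single pools, 0 of this branch fell without SiCD_A pool 1 or 2 or SiCD_B pool 3, and 3 fell without SiCD_A pool 3 or SiCD_B pool 1.

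**Figure D5:**
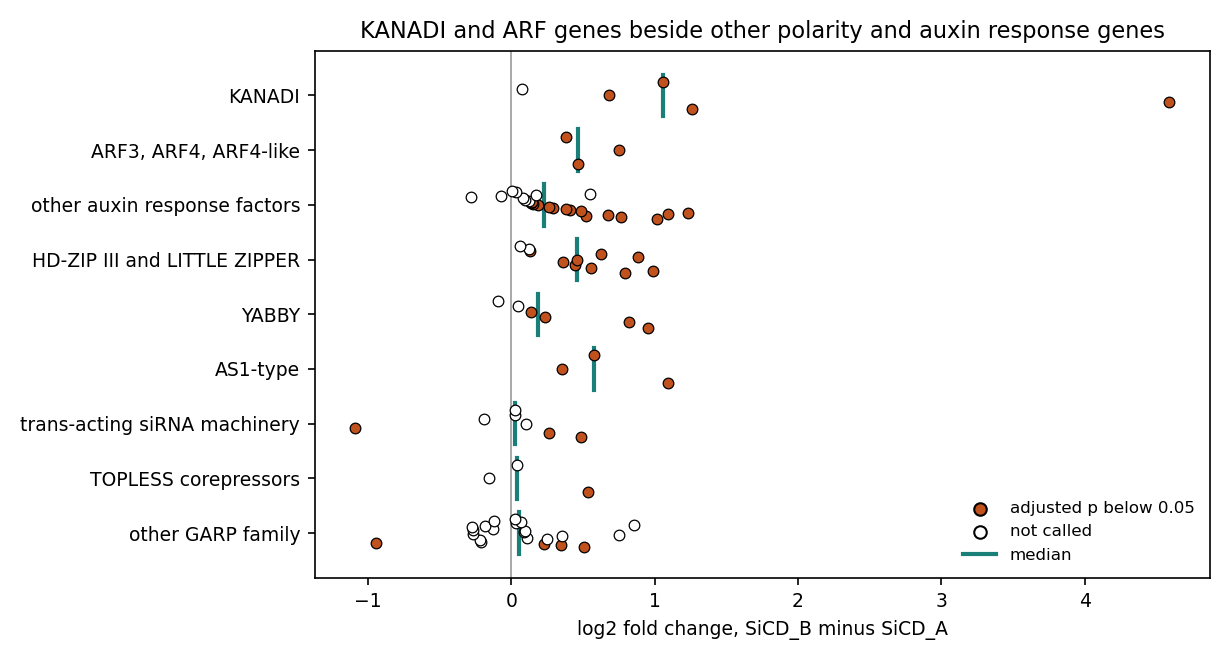
Log2 fold change, SiCD_B minus SiCD_A, of each tested gene in the KANADI and ARF3/ARF4 groups and in 7 lists of related genes, with called genes filled and a bar at each median. The medians of the AS1-type (0.58), HD-ZIP III (0.46) and other ARF (0.23) lists lie to the right of 0, while the trans-acting siRNA (0.03), TOPLESS (0.04) and other GARP (0.05) lists are centred near it.

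Markers of other cell types were also listed, and their part in the KANADI and ARF results was not tested. Of all tested genes, 16.5% were called higher and 14.1% lower, or 30.6% in either direction. Calls in the mitotic and vascular lists were well above that share. Those in the small trichome and guard cell list, of 7 genes, were also above it. Calls in the meristem, flower organ and photosynthesis lists were near or below it with all pools. Without SiCD_A pool 3, however, 16 photosynthesis genes fell. Of 23 mitotic genes tested, 17 rose and 0 fell, with a median of 0.52, and their summed level was 925 to 971 CPM in SiCD_A and 1157 to 1275 CPM in SiCD_B. Mitotic cyclin-2 (LOC105158888) had 0.68, its namesake LOC105178210 0.56 and cyclin-A1-1 (LOC105180345) 0.58. Of 12 vascular markers, 8 fell and 1 rose (median -0.35), with sums of 234 to 262 CPM in SiCD_A and 187 to 217 CPM in SiCD_B. All of them but IRREGULAR XYLEM 15-like are named for sieve elements or phloem proteins, so the list says little on xylem. SIEVE ELEMENT OCCLUSION B genes had -0.54 (LOC105176450) and -0.33 (LOC105176465), and IRREGULAR XYLEM 15-like (LOC105169520) had 0.57. The number that fell was 4 when pool 1 of SiCD_A, or pool 2 or 3 of SiCD_B, was left out, and 5 for pool 2 of SiCD_A.

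Of 7 tested genes of 10 listed for the meristem, 2 rose and 0 fell (median 1.01), with sums of 234 to 273 CPM in SiCD_A and 251 to 282 CPM in SiCD_B. These sums were mostly those of the LET12 genes LOC105162276 and LOC105166408, with means of 165 and 85.6 CPM in SiCD_A. Both were listed by their knotted-1-like name, so the sums say little on meristem tissue. The other tested genes of the list averaged 0.356 CPM or less in SiCD_A, and the median is the value of such a low gene. The knotted-1-like 1 gene LOC105172431 had 2.47 (SE 0.40), from 0.228 ± 0.101 CPM, LOC105165868 had 1.01 (SE 0.30), and LET12 (LOC105162276) had 0.15. Without SiCD_A pool 2 or 3 or SiCD_B pool 1 or 2, 1 of them rose. Flower organ genes were low, with sums of 6.53 to 6.90 and 7.12 to 8.63 CPM. Of 6 tested of 9, 2 rose, SEPALLATA 1-like (LOC105180283) with 1.74 and APETALA 1 A-like (LOC105180307) with 0.84, and 1 rose without SiCD_B pool 3. DEFICIENS (LOC105159317) had -0.29.

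Trichome and guard cell genes held 1 that rose and 2 that fell among 7 (median -0.13), with sums of 113 to 120.2 CPM in SiCD_A and 104 to 118 CPM in SiCD_B. FAMA (LOC105171872) had -0.75, SPEECHLESS (LOC105166727) 0.52 and MUTE (LOC105171392) -0.33. Of these, 1 fell without SiCD_A pool 1 or 2 or SiCD_B pool 1 or 2, and 2 rose without SiCD_A pool 3. Of 20 leaf photosynthesis genes, 1 rose and 3 fell (median -0.32). The small chain genes LOC105170701 and LOC105178030 had 0.47 and -0.52, and chlorophyll a-b binding protein 13 (LOC105177037) had -0.77. Here 16 fell without SiCD_A pool 3, 1 without SiCD_B pool 1 and 0 without any other pool. No gene of these lists was at 0 in all pools.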

How the data were processed

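Bulk segregant RNA sequencing of 6 pools was made with a TruSeq version 2 kit and read as pairs of 100 bases, per the labels' protocols. Tools listed in the submitters' processing notes are STAR, HTSeq, SAMtools, DESeq2, FastQC 0.11.4 and Trim Galore; for the genome build, none is given in the sources used here. In the deposited count table, values are unscaled whole numbers of reads for each gene. The kit does not mark strand, so reads of an antisense gene cannot be told apart, and reads shared by paralogs may be split or lost. The authors' deposited table adds a normalized signal (counts divided by a factor per pool), log2 fold changes, p-values, product names and the position of a coding segment. RefSeq's table of assembly S_indicum_v1.0 gave linkage groups and gene order, with all 25762 identifiers matched.

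For the main test, all 6 pools entered a robust quasi-likelihood fit by edgeR 4.0.16 (R 4.3.3) with TMM and filterByExpr and no covariates. On simulated data the fit recovered nearly all large changes and fewer small ones, and the share of false calls was above the nominal threshold. Standard errors are the log2 fold change divided by the square root of F. Log ratios within pools had 0.5 counts added to each gene and were tested with scipy 1.17.1. Division by coding length had been planned, but no coding lengths were at hand, so shares of reads are given.

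Same-numbered pools were not treated as paired, since the labels state no pairing. The correlations of their deviations over genes were 0.070, 0.009 and 0.057, which do not settle whether they were. The members and lists were chosen with earlier results of these data known, and some lists were narrowed by product name after the names had been read. The genes named are the 8 members, up to 3 genes per list by smallest p, and the 3 nearest profiles to KAN1 and to ARF4. Other settings tried were leaving out each pool, limma-voom (limma 3.58.1), the Wald test of DESeq2 1.42.0, the pool number as a block, other scaling (upper quartile, DESeq2's size factors, or library size alone), other filters (none, or at least 1 CPM in 3 pools) and 1 count added. Intervals and floors of 3 counts do not cover differences between the sets of plants. Figures were drawn with matplotlib 3.10.9.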

Additional observations from a re-analysis of the deposited data

How the results depend on the processing

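Each of the 8 genes kept a positive log2 fold change under every alternative in which it was tested, and 6 or 7 of them passed. KAN1-like had the widest range, from 4.13 without SiCD_A pool 1 to 5.15 without SiCD_A pool 2. KAN1 ranged from 1.19 to 1.33, ARF3 from 0.42 to 0.53, ARF4 from 0.69 to 0.80 and KAN2 LOC105155509, never called, from 0.0034 to 0.13. KAN4 ranged from 0.93 to 1.22 when single pools were left out. The difference in the read share of KAN4 ranged from -0.019 to 0.254 points, the log2 ratio of KAN2 LOC105156014 to ARF4 from -0.18 to 0.12, and that of ARF3 to ARF4-like from -0.0021 to 0.14.

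Without single pools, calls over all genes numbered 2132 to 3118 higher (3462 with all pools) and 1787 to 2895 lower (2971), the lowest of each without SiCD_B pool 2. The ranges were 2 to 3 higher YABBY genes, 1 to 2 higher and 0 to 1 lower trans-acting siRNA genes, 0 to 3 lower GARP genes, 0 to 16 lower photosynthesis genes, 4 to 8 lower vascular genes, 1 to 2 higher meristem genes, 1 to 2 higher flower genes, and 1 to 2 higher and 1 to 2 lower trichome and guard cell genes. With at least 1 CPM in 3 pools, 0 meristem genes and 1 flower gene rose and 0 trans-acting siRNA genes fell, fewer genes being tested. With the DESeq2 Wald test, 1 TOPLESS, 6 photosynthesis and 1 mitotic gene fell, and with upper-quartile factors 1 mitotic gene fell. The causes were not tested.

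With the pool number as a replicate block, 1 TOPLESS, 11 photosynthesis and 1 meristem gene fell, and 7181 genes were called against 6433. The block changed no call among the 8 genes. Each pool's deviations correlated best with those of the same-numbered pool, a hint from the data and not the design. With library size alone, 67.5% of calls were higher, against 53.8%. Division by length was not run. Depth limits KAN1-like in SiCD_A, at 2 to 11 counts, and KAN4.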
